A study of Homo sapiens with 4 samples.

Results

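MALAT1, NEAT1 and KCNQ1OT1 are 3 long noncoding RNAs that stay in the nucleus. They were taken from the expression table by symbol and occupy 4 of its 33478 rows, because 2 rows on opposite strands carry the name MALAT1 and are kept apart here by Ensembl identifier. The RNAs were chosen by their levels in these same libraries, which were already known, so their differences between groups are a description and carry no test. The libraries come from MHCC-97H, an established human hepatocellular carcinoma line. The study set cells with a short hairpin RNA (shRNA) against UCK2, a uridine-cytidine kinase of pyrimidine salvage, against cells with a control shRNA, with 2 libraries of each kind. A letter B in the UCK2 shRNA titles is left unexplained, and no label tells if replicates were grown separately. All values are the authors' deposited TPM (transcript abundance scaled to a fixed total per library after correction for gene length).

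As background, MALAT1 gathers in nuclear speckles, bodies rich in splicing factors, and is among the most abundant noncoding RNAs of cultured cells. NEAT1 is made from the neighbouring gene as a short polyadenylated form and a long form, and the long form is the scaffold of paraspeckles, nuclear bodies built on it by RNA-binding proteins such as NONO and SFPQ. KCNQ1OT1 is an unspliced RNA read from within the gene KCNQ1 in the opposite direction. It is made from the paternal chromosome and is known for silencing neighbouring imprinted genes on that chromosome.

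MALAT1 and the long form of NEAT1 do not end in a usual poly(A) tail. RNase P cuts their precursors after a genome-encoded A-rich tract, which folds with U-rich motifs upstream into a stabilising triple helix. The ends are shown because the capture of these RNAs by oligo-dT, used in many RNA kits, depends on such A-rich stretches. Sequences are from GENCODE release 29 transcripts on GRCh38, 5′ to 3′ on the RNA strand with T for U. In the ends of MALAT1 (chr11:65506007-65506116, plus strand) and long NEAT1 (chr11:65445431-65445540, plus strand), capitals mark U-rich motif 1, U-rich motif 2 and the A-rich tract in that order:
MALAT1 3′ end: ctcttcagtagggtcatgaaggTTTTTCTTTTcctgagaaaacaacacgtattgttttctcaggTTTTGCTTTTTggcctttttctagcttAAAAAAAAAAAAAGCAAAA
long NEAT1 3′ end: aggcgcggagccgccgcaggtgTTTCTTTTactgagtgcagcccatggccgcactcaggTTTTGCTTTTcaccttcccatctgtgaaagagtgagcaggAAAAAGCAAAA

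The longest stretch that these 110-base windows shared was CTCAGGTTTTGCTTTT, 16 bases around U-rich motif 2. In MALAT1 the A-rich tract was followed with 0 bases between by mascRNA, the tRNA-like small RNA that RNase P and RNase Z release from the precursor (58 bases, placed by RefSeq coordinates at chr11:65506117-65506174, plus strand). A short NEAT1 transcript instead ends behind a poly(A) signal, which is in capitals in its last 50 bases (chr11:65426464-65426513, plus strand). KCNQ1OT1 is annotated as a single exon of 91667 bases with 17 runs of at least 10 A. Its longest run, in capitals, has 29 (chr11:2610697-2610765, minus strand):
mascRNA: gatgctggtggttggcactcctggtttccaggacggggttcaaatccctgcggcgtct
short NEAT1 3′ end: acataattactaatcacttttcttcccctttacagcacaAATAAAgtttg
KCNQ1OT1 A run: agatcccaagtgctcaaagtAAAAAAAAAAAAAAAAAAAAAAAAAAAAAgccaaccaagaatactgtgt

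The longest run of A in the genome-encoded sequence was 13 bases in the MALAT1 transcript of 8708 bases and 22 in the long NEAT1 transcript of 22743 bases. The short NEAT1 transcript ending behind that signal, of 2994 bases, had none above 5. Runs of at least 10 A numbered 1 in MALAT1 and 5 in long NEAT1.

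Several facts of the whole table touch these values. Rows used here summed to 676811 and 643063 TPM in UCK2 shRNA replicates 1 and 2, against 850379 and 850534 TPM in control replicates 1 and 2, so that 32.3% and 35.7% of the total in the UCK2 shRNA libraries and 15.0% and 14.9% in the controls lay in none of these rows. The median log2 difference of the 14038 genes with a mean of at least 1 TPM was -0.22, so values are also given after median-ratio scaling, which brought it to -0.01. UCK2 itself measured 120.5 and 67.8 TPM under the UCK2 shRNA titles and 135.7 and 93.6 TPM in the controls. These values overlap, so UCK2 does not check the titles, on which every direction below rests. Keratin genes KRT8 and KRT18 and the hepatic markers ALB, AFP and HNF4A were expressed, while 3 of 15 hepatic markers (GPC3, EPCAM and APOB) stayed under 1 TPM in every library. The hepatic list summed to 2781 and 2408 TPM with UCK2 shRNA and 3169 and 4247 TPM in controls, mostly the keratins KRT8 and KRT18. KRT8 alone measured 2008 and 1792 TPM with UCK2 shRNA and 2250 and 3114 TPM in controls. ALB measured 20.1 and 18.6 TPM with UCK2 shRNA and 29.5 and 25.8 TPM in controls. Of 13 retina markers, read because the extraction text names retinas, 10 stayed under 1 TPM in every library, as did 9 of 15 markers of fibroblasts, endothelium and leukocytes. The retina list summed to 52.3 and 101 TPM with UCK2 shRNA and 64.8 and 98.1 TPM in controls, mostly ABCA4. The list of fibroblast, endothelial and leukocyte markers summed to 87.7 and 85.4 TPM in the UCK2 shRNA libraries and 100.4 and 83.6 TPM in the controls. Most of it was CD68, PECAM1 and LUM. With UCK2 shRNA these measured 43.7 and 45.6 TPM, 20.7 and 21.8 TPM, and 19.1 and 12.7 TPM in that order. In controls they measured 44.5 and 54.6 TPM, 24.5 and 20.4 TPM, and 27.6 and 5.85 TPM. The T-cell gene CD3E and the B-cell gene MS4A1 were at 0 throughout. TPM keeps no read depth, so counting error is unknown.

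MALAT1 (ENSG00000251562) is a lincRNA row, plus strand, at chr11:65497762-65506516 (hg38). It measured 411 and 1240.2 TPM in UCK2 shRNA replicates 1 and 2, against 161 and 58.8 TPM in control replicates 1 and 2. The groups did not overlap, which 5.46% of the genes kept and 15.9% of the lincRNA rows kept also showed in this direction. After scaling they did not overlap either, and the shares were 16.0% and 27.7%. Libraries within each group differed as well. The ratio was 3.02 between the UCK2 shRNA libraries (replicate 2 over 1) and 2.74 between the controls (replicate 1 over 2). Means were 826 ± 586 TPM with UCK2 shRNA and 110.01 ± 72.5 TPM in controls (SD, n = 2 each), a ratio of 7.50. On the log2(TPM + 1) scale the difference was 2.86 ± 0.59 (SE from limma), and 3.10 ± 0.51 after scaling. In these 14038 genes it ranked 5th from the top on either scale. In bulk RNA, more RNA per cell and more cells that make it cannot be told apart.

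The rank of MALAT1 among all 33478 rows does not depend on the scaling of a library. MALAT1 was the 226th and the 64th most abundant row in UCK2 shRNA replicates 1 and 2, and the 769th and the 2186th in control replicates 1 and 2. Among lincRNA rows it was the most abundant in both UCK2 shRNA libraries, where it made up 6.47% and 15.0% of all lincRNA TPM. In the controls it ranked 2 and 14 and made up 2.06% and 1.01%. The most abundant lincRNA was NEAT1 at 228 TPM in control replicate 1 and LINC00152 at 165 TPM in control replicate 2.

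The other row named MALAT1 (ENSG00000279576) is annotated as protein-coding on the minus strand, from 65502034 to 65503622 on chromosome 11, wholly inside the first. It was listed at 0 in both UCK2 shRNA libraries and at 3.08 and 1.76 TPM in control replicates 1 and 2. The log2(TPM + 1) difference of this row was -1.75, and -1.66 after scaling. Ranked from the top, these were places 14029 and 14030 of the 14038 genes kept. With a pseudocount of 0.1 the difference was -4.61, so its size rests on the pseudocount. Libraries were made with a TruSeq RNA kit, per the labels. Whether reads were counted by strand is unstated in the sources used here, so reads of the overlapping rows may not have been told apart. A value of 0 in the table need not mean that no RNA was present, and the cause of the 0 values here was not tested. The small RNA genes RN7SL1 and RMRP are needed by every cell for protein targeting and RNA processing. Both are on the list of RNAs without a poly(A) tail read below. They were listed at or near 0 in 3 of the 4 libraries each, and why was not tested. RN7SL1 was listed at 1e-06 TPM in UCK2 shRNA replicate 1 and 0 in replicate 2, against 59.7 TPM in control replicate 1 and 0 in replicate 2. RMRP was listed at 23.1 TPM in UCK2 shRNA replicate 2 and at 0 elsewhere. Another row, AP000769.7, overlaps MALAT1 on the minus strand and was listed at 0 in all 4 libraries.

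**Figure D1:**
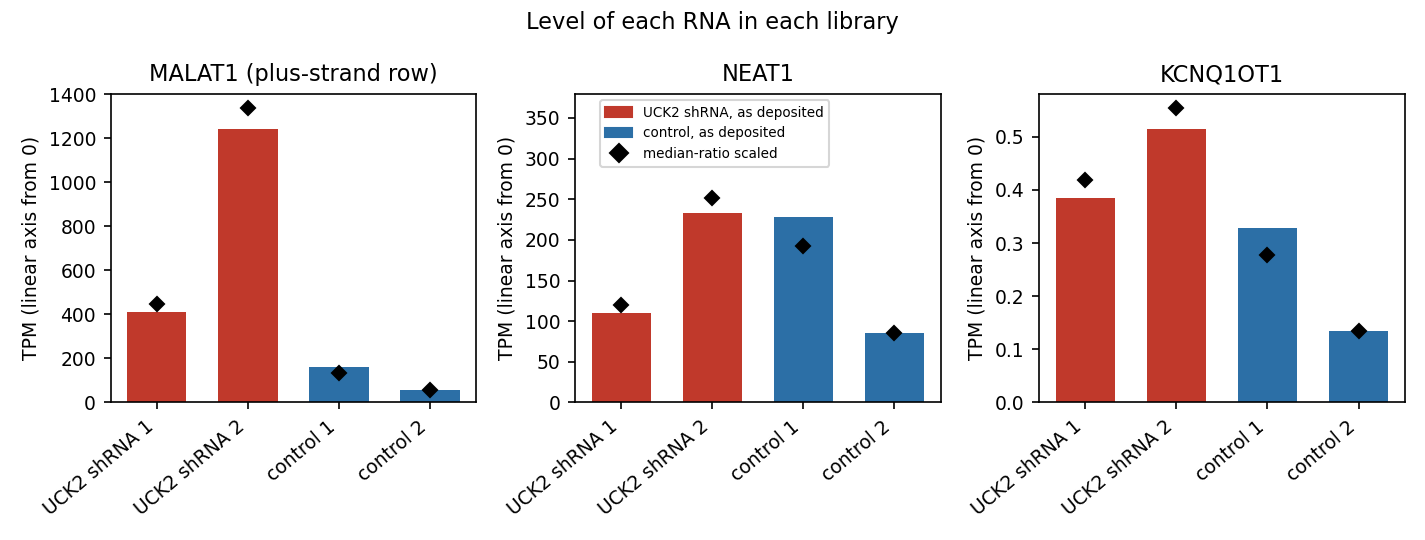
Level of MALAT1 (plus-strand row), NEAT1 and KCNQ1OT1 in each library, in TPM on linear axes that start at 0 and differ between panels. Bars are deposited values of the UCK2 shRNA (red) and control (blue) libraries, and diamonds the same values after median-ratio scaling. MALAT1 and KCNQ1OT1 did not overlap between groups, while NEAT1 was high in a library of each group, at 233 and 228 TPM.

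NEAT1 (ENSG00000245532) is a lincRNA row upstream of MALAT1, plus strand, at chr11:65422774-65445540. It measured 110.2 and 233 TPM in UCK2 shRNA replicates 1 and 2, against 228 and 85.9 TPM in control replicates 1 and 2. The groups overlapped, with a high and a low library in each. Means were 172 ± 87.1 TPM with UCK2 shRNA and 157 ± 100.4 TPM in controls (SD, n = 2 each). The log2 difference was 0.19 ± 0.49 (SE), or 0.43 ± 0.42 after scaling, within the spread of the libraries. Its sign turned without UCK2 shRNA replicate 2 (-0.34) and without control replicate 2 (-0.50). The table has a single row for NEAT1, so the short and long forms were not separated, and the sources used here do not state the gene length behind its TPM.

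Within each group the library with more MALAT1 also had more NEAT1. The same direction in both groups was seen in 40.9% of the genes kept and 47.4% of lincRNA rows kept. UCK2 shRNA replicate 2 had 2.12 times the NEAT1 level of replicate 1, and control replicate 1 had 2.65 times that of replicate 2. A ratio of at least 2 in both of these pairs was seen in 225 of the 14038 genes kept, or 1.60%, and in 63 of 997 lincRNA rows kept, or 6.32%. The pairs follow the order seen in MALAT1 and NEAT1, whose values were already known, so these shares are no test. After scaling the ratios were 2.09 and 2.24 for NEAT1, and 2.99 and 2.32 for MALAT1.

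The ratio of MALAT1 to NEAT1 is free of library scaling, and it set the groups apart with little spread inside them. MALAT1 stood at 3.73 and 5.32 times NEAT1 in UCK2 shRNA replicates 1 and 2, against 0.708 and 0.684 times NEAT1 in control replicates 1 and 2. On the log2 scale the ratio averaged 2.15 ± 0.36 with UCK2 shRNA and -0.52 ± 0.03 in controls (SD, n = 2 each), a difference of 2.68. The difference ran from 2.42 to 2.93 when any 1 library was left out. This ratio was chosen after its values were seen and is given without a test. An exact permutation test of 2 libraries against 2 could not give a p below 0.333.

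**Figure D2:**
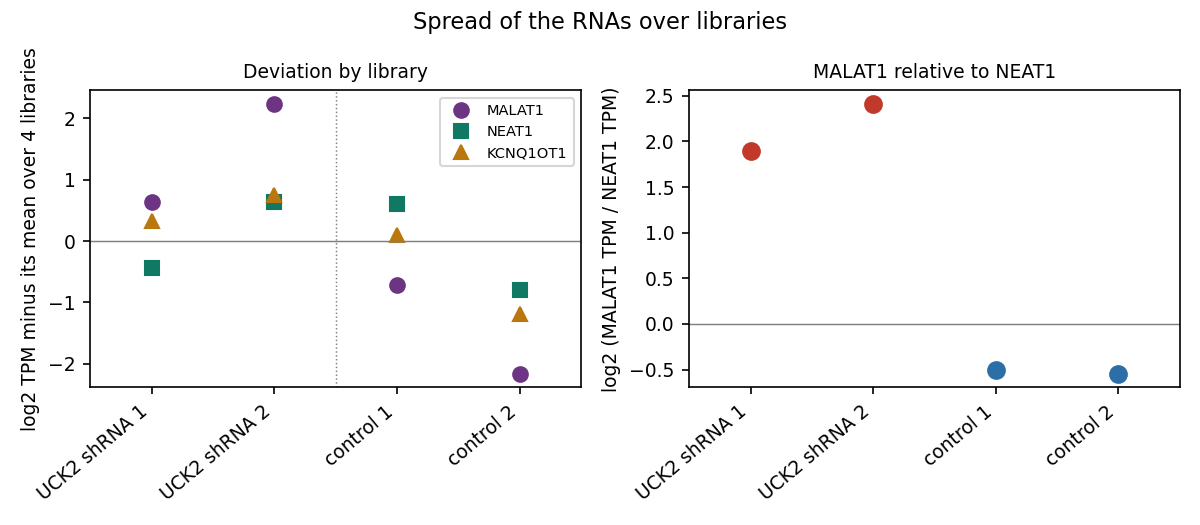
Left, log2 TPM of each RNA minus its mean over the 4 libraries, against library; right, log2 of MALAT1 TPM over NEAT1 TPM in the UCK2 shRNA (red) and control (blue) libraries. All 3 RNAs were higher in UCK2 shRNA replicate 2 than in replicate 1 and in control replicate 1 than in replicate 2, as were 40.9% of genes kept, and the ratio was 1.90 and 2.41 with UCK2 shRNA, against -0.50 and -0.55 in controls.

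KCNQ1OT1 (ENSG00000269821) lies on the minus strand of chromosome 11 from 2608328 to 2699994. It was listed at 0.385 and 0.514 TPM in UCK2 shRNA replicates 1 and 2, against 0.329 and 0.134 TPM in control replicates 1 and 2. The groups did not overlap, but UCK2 shRNA replicate 1 and control replicate 1 lay closer to each other than the controls did. Means were 0.450 ± 0.0912 TPM with UCK2 shRNA and 0.231 ± 0.138 TPM in controls (SD, n = 2 each), a ratio of 1.94. Its mean is under 1 TPM, so it was not among the 14038 genes kept. The log2(TPM + 1) difference of 0.24 understates a change at this level, and with a pseudocount of 0.1 it was 0.78. Per length, MALAT1 stood 1067 and 2413 times above KCNQ1OT1 in the UCK2 shRNA libraries and 491 and 438 times above it in the controls.

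MALAT1 and KCNQ1OT1 had the same order of libraries: UCK2 shRNA replicate 2, UCK2 shRNA replicate 1, control replicate 1, control replicate 2. That order was held by 374 of the 14038 genes kept (2.66%) and, after scaling, by 1108 (7.89%). Among the 997 lincRNA rows kept it was held by 8.93%, or 13.8% after scaling. Non-overlapping groups, higher with UCK2 shRNA, were seen in 5.46% of genes kept as deposited and 16.0% after scaling. The lower direction was seen in 44.4% as deposited and 15.5% after scaling. KCNQ1OT1 is not among the genes kept, so these shares do not cover it, and none was computed for rows at its level. Rows above 0 numbered 23952 and 23837 in the UCK2 shRNA libraries and 22718 and 22360 in the controls.

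KCNQ1, the potassium channel gene that holds KCNQ1OT1 in its body on the opposite strand, measured 0.467 and 0.424 TPM in UCK2 shRNA replicates 1 and 2, against 0.580 and 1.12 TPM in control replicates 1 and 2. As deposited, this is the reverse of the order of KCNQ1OT1 in all 4 libraries. After scaling it is not, because KCNQ1 in UCK2 shRNA replicate 1 then lies above control replicate 1 and its groups overlap. The ratio of KCNQ1OT1 to KCNQ1 was 0.824 and 1.21 with UCK2 shRNA, against 0.567 and 0.120 in the controls. Both rows averaged under 1 TPM, KCNQ1 was not tested, and overlapping rows on opposite strands may share reads here.

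The other genes of the KCNQ1OT1 domain were next read from a list of 15, of which 9 had a mean of at least 1 TPM. With limma 0 of 9 passed an adjusted p of 0.05 as deposited or scaled, where 0% of all genes kept passed in either direction as deposited and 0.0641%, all higher, after scaling. PHLDA2, which restrains placental growth and is silenced on the paternal chromosome, had the highest mean. It measured 146 and 137 TPM in UCK2 shRNA replicates 1 and 2, against 219 and 267 TPM in the controls, a log2 difference of -0.77 ± 0.16 (SE, limma adjusted p = 0.294) and -0.53 after scaling (limma adjusted p = 0.905). NAP1L4, a histone chaperone gene, measured 88.5 and 89.7 TPM with UCK2 shRNA and 115 and 101 TPM in controls, a log2 difference of -0.27 (limma adjusted p = 0.439). CDKN1C, a cyclin-dependent kinase inhibitor of the same domain, measured 3.62 and 3.92 TPM with UCK2 shRNA and 5.46 and 7.87 TPM in controls (limma adjusted p = 0.329). As deposited, groups did not overlap and were lower with UCK2 shRNA for 7 of the 9, against 44.4% of genes kept. After scaling this held for 6 of the 9, against 15.5% of genes kept, and NAP1L4 counts among them at only -0.03. On either scale 0 of 9 were higher. Of the paraspeckle and nuclear speckle proteins read below, 7 of 19 and 5 of 16 were likewise lower after scaling. The median scaled difference of the domain list was -0.24, against -0.01 for all genes kept. ASCL2 and TH were at 0 in every library.

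Genes around NEAT1 and MALAT1 were read next. Of 26 other rows within 250 kb, 20 were kept and 0 passed with limma, as deposited (smallest adjusted p = 0.294) or scaled (smallest adjusted p = 0.955). CMB9-22P13.1, a lincRNA row between them, measured 22.9 and 26.1 TPM with UCK2 shRNA and 37.4 and 30.5 TPM in controls. FRMD8, upstream of NEAT1, measured 59.6 and 47.8 TPM with UCK2 shRNA and 73.7 and 67.9 TPM in controls. Scaled log2 differences of the 20 neighbours ran from -0.42 to 0.74, with a median of -0.15, where MALAT1 had 3.10. MALAT1 was chosen by its levels in these libraries, so its place outside that range is no test. CMB9-22P13.1 and FRMD8 were chosen for their position after their values were seen. Around KCNQ1OT1, 7 of 13 rows were kept, 0 passed with limma, and the scaled median was -0.47. All 7 are also on the domain list above, so this is not a separate observation.

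**Figure D3:**
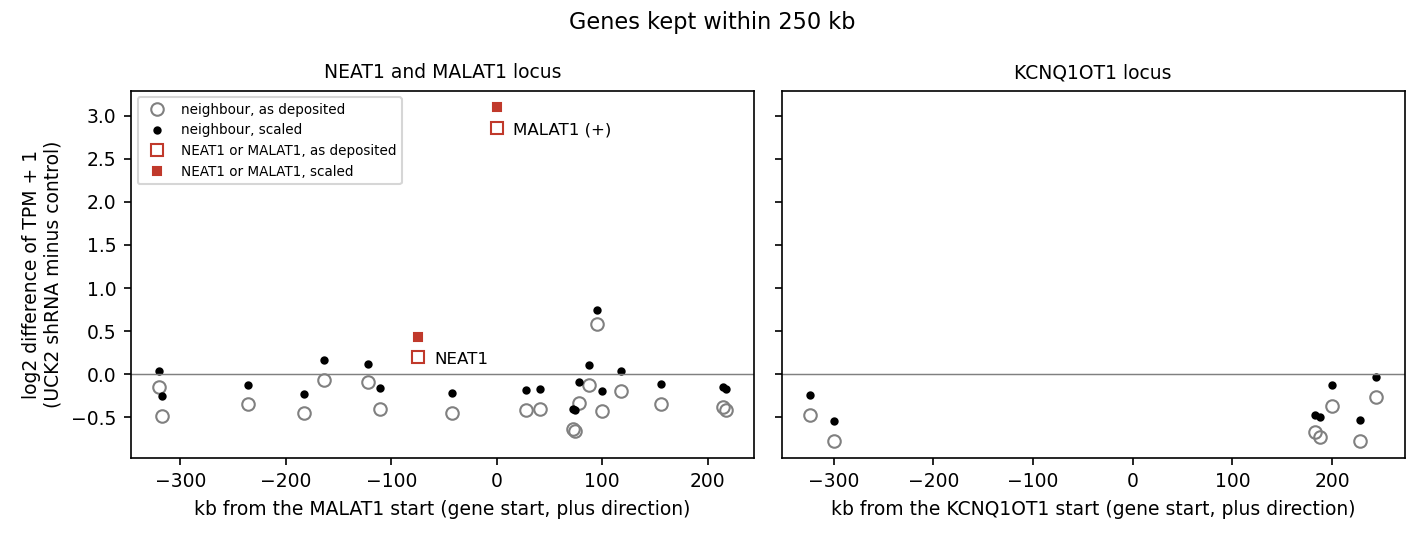
Log2 difference of TPM + 1 (UCK2 shRNA minus control) of genes kept within 250 kb of NEAT1 and MALAT1 (left) and of KCNQ1OT1 (right), against the distance of each gene's start in kb. Circles and dots are neighbours as deposited and after median-ratio scaling (20 on the left), and red squares are NEAT1 and the plus-strand MALAT1 row. That MALAT1 row, chosen by its levels, was at 2.86 and 3.10. The minus-strand MALAT1 row, at -1.75 as deposited and -1.66 scaled, is not drawn.

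Genes that make, process or work with these RNAs were read from lists, with limma over all 14038 genes kept. In all, 146 listed genes were kept, markers included, and 0 of them passed an adjusted p of 0.05 as deposited (smallest adjusted p = 0.294) or scaled (smallest 0.550). Over all genes 0 passed as deposited in either direction, with 194 higher and 1962 lower at an unadjusted p under 0.05. After scaling 9 passed, all higher. Without control replicate 1 the counts were 242 higher and 108 lower, with 8 of the listed genes, and without control replicate 2 they were 32 higher and 21 lower, with 1 listed gene.

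Nuclear speckle proteins had 0 of 16 genes passing and a scaled median of -0.07. SRRM2, a scaffold protein of speckles, measured 269 and 340 TPM with UCK2 shRNA and 453 and 396 TPM in controls. SNRNP70, of the U1 splicing particle, measured 223 and 218 TPM with UCK2 shRNA and 340 and 359 TPM in controls, a scaled log2 difference of -0.42 (limma adjusted p = 0.949). The highest in the list after scaling was 0.43. MALAT1 was chosen by its levels in these libraries, so a gap between it and this list is no test.

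Paraspeckle proteins, the partners of NEAT1, had 0 of 19 genes passing, a scaled median of -0.08 and a scaled range from -0.44 to 0.24. HNRNPA1, an abundant splicing regulator, measured 718 and 799 TPM with UCK2 shRNA and 987 and 872 TPM in controls. HNRNPK, which favours the long form of NEAT1, measured 346 and 316 TPM with UCK2 shRNA and 456 and 418 TPM in controls. NONO and SFPQ are core components and were named after their values were seen. NONO measured 327 and 285 TPM with UCK2 shRNA and 449 and 422 TPM in controls. SFPQ measured 98.3 and 101 TPM with UCK2 shRNA and 144 and 108 TPM in controls. Of the factors that choose the 3′ end of NEAT1, 0 of 4 passed. CPSF6, of the cleavage complex that favours the short form, measured 65.9 and 72.0 TPM with UCK2 shRNA and 71.5 and 52.9 TPM in controls. On the same list NUDT21 was lower with UCK2 shRNA, at 49.2 and 43.9 TPM against 76.0 and 69.6 TPM in controls. CPSF7 overlapped between groups. These 2 were named after their values were seen. Factors reported to act on NEAT1 transcription had 0 of 8 passing and a scaled median of -0.07. HSF1, the heat shock factor, measured 64.2 and 65.2 TPM with UCK2 shRNA and 90.5 and 101 TPM in controls, and RELA, of NF-kappaB, 37.2 and 36.7 TPM against 43.9 and 51.3 TPM in controls.

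The enzymes that cut the MALAT1 end, RNase P and RNase Z, and METTL16, a protein that binds the triple helix, had 0 of 13 genes passing. Their scaled median was -0.17. RPPH1, the RNA of RNase P, measured 1498 and 722 TPM in UCK2 shRNA replicates 1 and 2, against 1970 and 974 TPM in control replicates 1 and 2. RPPH1 was thus lower in UCK2 shRNA replicate 2 than in replicate 1, while MALAT1 and NEAT1 were higher in replicate 2. In the controls all 3 went the same way, higher in replicate 1 than in replicate 2. POP7, a protein subunit, measured 132 and 110.03 TPM with UCK2 shRNA and 170 and 202 TPM in controls.

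Nuclear RNA decay genes had 0 of 21 passing and a scaled median of 0.10, with EXOSC4, of the exosome, at 96.9 and 90.8 TPM with UCK2 shRNA and 130 and 175 TPM in controls. XRN2, the exonuclease of transcription termination, measured 63.7 and 54.6 TPM with UCK2 shRNA and 79.6 and 71.0 TPM in controls. The m6A list, whose mark is dense on MALAT1, had 0 of 12 passing and a scaled median of 0.04. HNRNPC, which reads m6A-switched structures, measured 401 and 338 TPM with UCK2 shRNA and 447 and 478 TPM in controls, and RBMX 145 and 117 TPM with UCK2 shRNA against 189 and 157 TPM in controls. Chromatin factors of KCNQ1OT1 silencing had 0 of 9 passing and a scaled median of -0.01. DNMT1, the maintenance DNA methyltransferase, measured 56.7 and 39.2 TPM with UCK2 shRNA and 72.5 and 63.4 TPM in controls. EHMT1, a histone H3 lysine methyltransferase, measured 44.3 and 40.1 TPM with UCK2 shRNA and 51.1 and 43.1 TPM in controls.

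**Figure D4:**
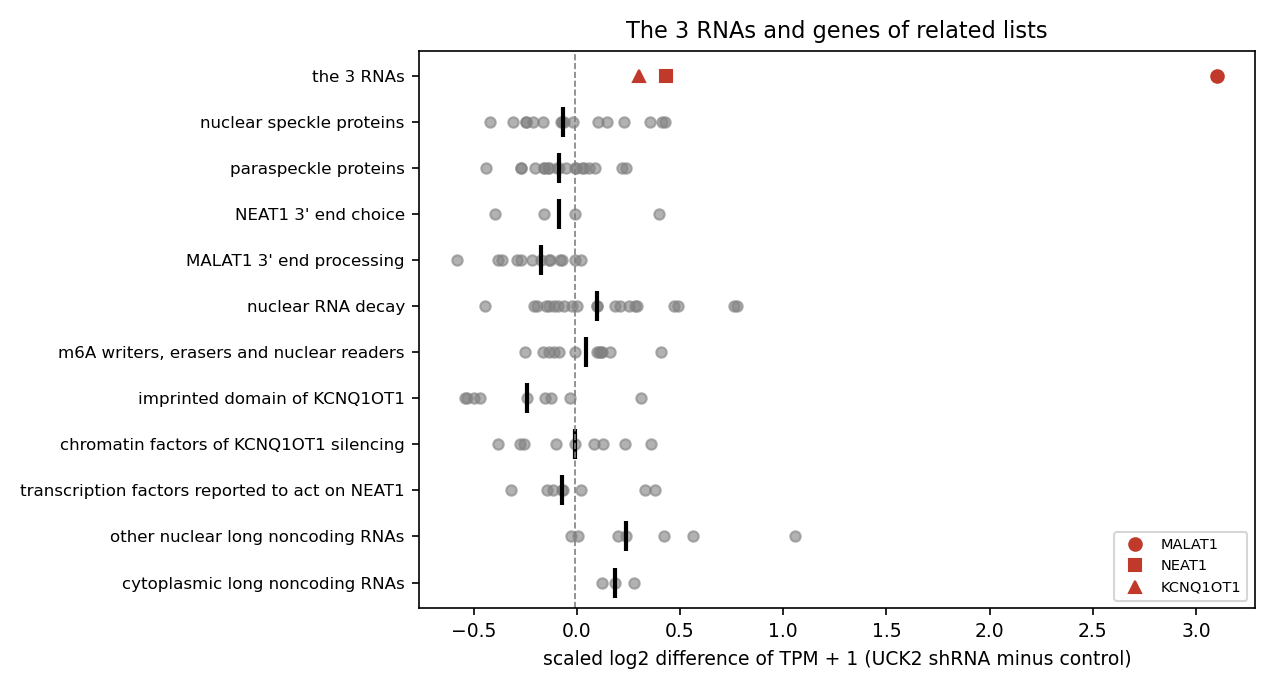
Scaled log2 difference of TPM + 1 (UCK2 shRNA minus control) of the 3 RNAs (red) and of each kept gene of 11 related lists (grey), which leave out the marker lists and the RNAs without a poly(A) tail. Black bars are list medians and the dashed line is the median of all genes kept, -0.01; among the genes plotted from these lists FTX alone was above 1, and MALAT1 was at 3.10.

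Other long noncoding RNAs were read to see how far they moved with these 3. Of 11 other nuclear ones, 7 were kept and 0 passed with limma, with a scaled median of 0.24, against 0.15 for the 997 lincRNA rows kept. PVT1, a transcript next to MYC, measured 90.2 and 94.0 TPM with UCK2 shRNA and 135 and 86.5 TPM in controls. TUG1 measured 25.6 and 33.6 TPM with UCK2 shRNA and 40.3 and 21.2 TPM in controls, the higher library of each group being the same as for NEAT1, as in 40.9% of genes kept. As deposited, groups did not overlap and were higher with UCK2 shRNA for 2 of the 7, against 5.46% of genes kept and 15.9% of lincRNA rows. After scaling this held for 4 of the 7, against 16.0% of genes kept and 27.7% of lincRNA rows. The 2 as deposited were FTX and DLEU2, named after their values were seen. FTX, a regulator of XIST, measured 7.36 and 13.0 TPM with UCK2 shRNA and 7.12 and 3.46 TPM in controls. DLEU2 measured 1.62 and 2.31 TPM against 1.39 and 1.04 TPM in controls. Cytoplasmic RNAs had 3 of 10 kept and 0 passing. ZFAS1 measured 162 and 190 TPM with UCK2 shRNA and 199 and 148 TPM in controls, and LINC00657, also called NORAD, 58.1 and 88.8 TPM against 97.1 and 57.3 TPM in controls. In both of these RNAs UCK2 shRNA replicate 2 was above replicate 1 and control replicate 1 above replicate 2, as in 40.9% of genes kept and 47.4% of lincRNA rows kept. As deposited, each was highest in control replicate 1. NEAT1 was highest in UCK2 shRNA replicate 2, though by little, at 233 against 228 TPM in control replicate 1. After scaling, ZFAS1 was higher in both UCK2 shRNA libraries than in either control, as were 16.0% of genes kept, and LINC00657 still overlapped. The place of the highest library thus does not set these RNAs apart from NEAT1.

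RNAs without a poly(A) tail were read as a list because of the MALAT1 and NEAT1 ends. Of 18 listed, 12 were kept and 0 passed, with a scaled median of 0.05. HIST1H1C, a linker histone gene, measured 44.1 and 47.3 TPM with UCK2 shRNA and 38.5 and 62.4 TPM in controls. The list summed to 1614 and 873 TPM in UCK2 shRNA replicates 1 and 2, against 2144 and 1124 TPM in control replicates 1 and 2, most of it RPPH1.

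Genes with the most similar pattern were found by the Euclidean distance between deviations of log2(TPM + 1) from each gene's mean over the 4 libraries, among up to 9265 named genes averaging at least 5 TPM. NEAT1 had many close matches, with 122 genes within a distance of 0.5. The nearest were UBA6, a ubiquitin-activating enzyme gene (distance 0.109), CLIP4, a microtubule-linker family gene (0.155), the zinc finger gene ZFP1 (0.217) and the transcription factor gene NFE2L3 (0.224). UBA6 measured 8.52 and 18.0 TPM in UCK2 shRNA replicates 1 and 2, against 16.6 and 6.05 TPM in control replicates 1 and 2. It repeats the high and low library of each group seen in NEAT1.

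Deviations were not divided by their spread, so a gene with a large difference tends to lie far from all others. MALAT1 was chosen by its levels in these libraries and had 0 genes within a distance of 0.5, which is no test. Its nearest were SCARNA9, a small Cajal body RNA gene (1.24), EIF3CL, a near copy of a translation factor gene whose level is uncertain for that reason (1.52), CCPG1, an endoplasmic reticulum autophagy receptor gene (1.77), and the transcription factor gene ZBTB20 (1.86). SCARNA9 measured 14.3 and 29.03 TPM in UCK2 shRNA replicates 1 and 2, against 1.34 and 1.62 TPM in control replicates 1 and 2. It shared the high UCK2 shRNA replicate 2 with MALAT1 but not the order of the controls. The minus-strand MALAT1 row lay nearest to CPLX1 (0.594), TMEM105 (0.661), CYP1B1-AS1 (0.841) and PNKD (0.877). CPLX1, which acts in vesicle release, measured 3.90 and 2.77 TPM with UCK2 shRNA and 10.3 and 10.3 TPM in controls.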

How the data were processed

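Per the labels, RNA of MHCC-97H cells was sequenced in 4 libraries, 2 with UCK2 shRNA and 2 with control shRNA, grouped by title. The authors deposited TPM per gene. Per the submitters' processing notes the tools were HTSeq, edgeR, DESeq and TopHat2 2.0.14, in no stated role, with genome build hg38. In the description field, control replicate 2 carries a different line number, and UCK2 shRNA replicate 2 a different gene number, from their titles. No mitochondrial gene was analysed here. The members and gene lists were chosen with earlier results of these data known. Genes with a mean of at least 1 TPM (14038, with 3 of the 4 member rows) entered limma 3.58.1 (R 4.3.3; lmFit and eBayes with trend) as log2(TPM + 1). Tests were two-sided, and p-values were adjusted by Benjamini-Hochberg across every gene kept, with 0.05 as the threshold. TPM are not counts, so no count test was run. Median-ratio factors were 0.918 and 0.928 for the UCK2 shRNA libraries and 1.19 and 1.00 for the controls. As replicates may be technical, a p-value reflects only how these libraries vary. The fit was tested on simulated data. In each list, genes passing were to be named, or else the 2 with the highest mean TPM. Symbols with several rows took the row with the highest mean. Transcript sequences came from GENCODE release 29, whose NEAT1 and KCNQ1OT1 coordinates match the table and whose MALAT1 gene starts earlier, and figures from matplotlib 3.10.9.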

Additional observations from a re-analysis of the deposited data

How the results depend on the processing

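The log2 difference of MALAT1 kept its sign under every alternative run and was between 2.86 and 3.24 with other scalings, pseudocounts, filters and variance models. With each library left out it ran from 2.06 to 3.66, that of NEAT1 from -0.50 to 0.89 (reversed at -0.34 without UCK2 shRNA replicate 2 and at -0.50 without control replicate 2), that of KCNQ1OT1 from 0.12 to 0.35 and that of the MALAT1 to NEAT1 ratio from 2.42 to 2.93. With smaller pseudocounts KCNQ1OT1 gave 0.78 (0.1) and 0.39 (0.5), since a smaller pseudocount weighs low values more. Quantile normalization gave KCNQ1OT1 no value, since it was not among the genes kept. Counts of genes called depended on scaling and on the control libraries: 9 higher with median-ratio scaling and 8 with quantile normalization, and, with each library left out, from 0 to 242 higher and from 0 to 108 lower, where the lone library of a group is assumed to vary like the others. The replicate numbers carry no stated pairing, and deviations of same-numbered libraries correlated at -0.21. With the replicate block 29 genes were higher and 10 lower (98 and 23 with scaling), with 2 listed genes on either scale, and with the numbers crossed, a choice made after seeing the data, 91 higher and 636 lower, with 16 listed genes. Blocked fits rest on 1 residual degree of freedom. Their log2 differences for the 3 RNAs equal the unblocked ones. The cause of each of these moves of the counts was not tested. TPM keeps no depth, so levels under 1 TPM, KCNQ1OT1 among them, have unknown counting error.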
